A study of Homo sapiens with 4 samples.

Results

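NRF2 antioxidant target genes were followed in WM35 melanoma cells that had been exposed to C646, which blocks the acetyltransferase activity of p300 and CBP. The set was a list of 10 gene symbols, and the rule uses no measured value, although earlier results of these data were known when it was drawn up: NQO1, HMOX1, GCLM, GCLC, SRXN1, TXNRD1, SLC7A11, FTL, FTH1 and ABCC2. A gene counted as measured when a probe set of the array carried its symbol alone, which held for 8 of the 10, out of 17144 genes named in this way. NQO1, a quinone reductase, was covered only by a probe set that it shares with another gene, and no probe set carried the symbol of FTH1, the ferritin heavy chain, so neither has a value here. Where several probe sets carried a symbol, the one with the highest mean over the 4 arrays stood for the gene.

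The 4 groups were C646 for 6 h, DMSO for 6 h, C646 for 24 h and DMSO for 24 h, each a culture of WM35, a human melanoma line of the radial growth phase. C646 was given at 20 µM, and the vehicle cultures received DMSO at 0.2%. Each group was measured on 1 Affymetrix exon array, so a difference between C646 and DMSO is that of an array against an array, with no replicate check and no p-value. Values are log2 expression values per probe set, on which a difference of 1 is 2-fold.

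NRF2, the product of NFE2L2, is a transcription factor that KEAP1 and the ubiquitin ligase scaffold CUL3 keep at a low level in unstressed cells. Oxidants and electrophiles release it from KEAP1, and it then binds antioxidant response elements as a dimer with a small MAF protein, while BACH1 occupies the same elements as a repressor. Its targets make and recycle glutathione and thioredoxin, break down heme, store iron and export conjugates, and p300 and CBP are known coactivators of NRF2.

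RefSeq promoters (build GRCh38.p14, 250 bases before each annotated start searched) were matched for 7 of the 10 genes, 8 promoters in all, because TXNRD1 has a pair of them. The core of the antioxidant response element was searched as TGACNNNGC on both strands. It was found before the starts of GCLM and TXNRD1 and is held by 10.9% of all 35116 promoters in the table. The letters TGANTCA, the site of AP-1 factors, which read the same way on both strands, occurred in 0 of the 8 promoters, against 6.57% of all. No match says only that these letters are not in this window. The 120 bases before the start are printed for the genes with a match and for FTL and ABCC2, the genes that were higher with C646 at both times, with the element in capitals (in GCLM and the second TXNRD1 promoter it lies on the opposite strand).
GCLM, chr1:93909431-93909550, minus strand: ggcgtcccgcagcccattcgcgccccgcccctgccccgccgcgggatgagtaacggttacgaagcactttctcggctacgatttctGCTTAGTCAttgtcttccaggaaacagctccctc
TXNRD1, chr12:104215659-104215778, plus strand: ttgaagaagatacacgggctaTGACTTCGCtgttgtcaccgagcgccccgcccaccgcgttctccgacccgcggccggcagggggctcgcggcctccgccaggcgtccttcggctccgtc
TXNRD1, chr12:104286912-104287031, plus strand: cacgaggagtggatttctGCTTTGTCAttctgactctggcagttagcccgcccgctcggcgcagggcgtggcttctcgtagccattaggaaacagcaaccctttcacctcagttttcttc
FTL, chr19:48965189-48965308, plus strand: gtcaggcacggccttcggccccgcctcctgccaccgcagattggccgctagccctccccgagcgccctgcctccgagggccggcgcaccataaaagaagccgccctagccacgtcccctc
ABCC2, chr10:99782520-99782639, plus strand: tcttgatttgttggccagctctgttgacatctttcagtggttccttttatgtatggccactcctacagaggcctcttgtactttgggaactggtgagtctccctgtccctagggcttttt

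Across all probe sets the C646 array of 24 h stood apart, correlating at 0.975 to 0.979 with the other arrays, which correlated at 0.991 to 0.996 with each other. Of 12 cell cycle markers, 12 were at least 2-fold lower with C646 at 24 h, where 2.5% of all probe sets were, from -3.67 for CCNE2 to -1.66 for PLK1 with a median of -2.19. At 6 h their median was -0.24 and 0 were 2-fold lower. Of 10 melanocyte markers 6 had a probe set of their own, all 6 passed the filter on dim probe sets, which lay at 3.96, and PMEL, a melanosome protein, read 10.7 to 11.0 on the 4 arrays. Of the markers of other cell types with a probe set, 2 of 5 for keratinocytes, 3 of 7 for fibroblasts, 1 of 5 for leukocytes and 1 of 5 for endothelium passed. KRT14, PTPRC and PECAM1 were among those below it. Over the 4 arrays KDR read 7.66 to 8.65, CD68 7.62 to 7.77, KRT10 5.82 to 5.99 and LUM 5.55 to 5.92. FAP read 5.18 to 5.71, COL1A1 4.02 to 4.08 and KRT15 3.90 to 4.08. Of those that passed, the endothelial marker KDR, a growth factor receptor, was at 0.53 at 6 h and 0.68 at 24 h (C646 minus DMSO). Between the DMSO arrays KDR was at -0.46 (24 h minus 6 h). The fibroblast marker FAP was at -0.078 and 0.53, and between the DMSO arrays at -0.45 (24 h minus 6 h). The others, KRT10, KRT15, COL1A1, LUM and CD68, lay between -0.11 and 0.13 at 6 h and between -0.21 and 0.16 at 24 h. The 6 melanocyte markers had medians of 0.45 and 0.57, with S100B at 0.61 and 1.49, MITF, the master regulator of melanocytes, at 0.79 and 0.90, TYRP1 at -0.27 and 0.15, and PMEL at 0.089 and 0.078. Between the DMSO arrays (24 h minus 6 h) the median of these markers was -0.21, with S100B at -0.38 and MITF at -0.34. Their part in the differences of the NRF2 targets was not tested. In cells measured in bulk, fewer cells of a state and less RNA per cell cannot be told apart. Between the DMSO arrays, differences had an SD of 0.17 over 16579 probe sets past the filter, a span that holds both the time in culture and the error between arrays.

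The NRF2 targets did not differ from DMSO in one common direction under C646. Of the 8 measured genes, 0 differed 2-fold at either time, where 0.241% of all probe sets did so at 6 h and 3.64% at 24 h. FTL and ABCC2 were higher with C646 at both times and more so at 24 h, by 1.44-fold and 1.45-fold there. HMOX1, GCLM, GCLC, SRXN1 and SLC7A11 lay above DMSO at 6 h and below it at 24 h, most of them by small amounts, and TXNRD1 did the reverse. The median difference of the 8 was 0.14 at 6 h and -0.025 at 24 h, against -0.0024 and 0.030 over all probe sets.

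**Figure D1:**
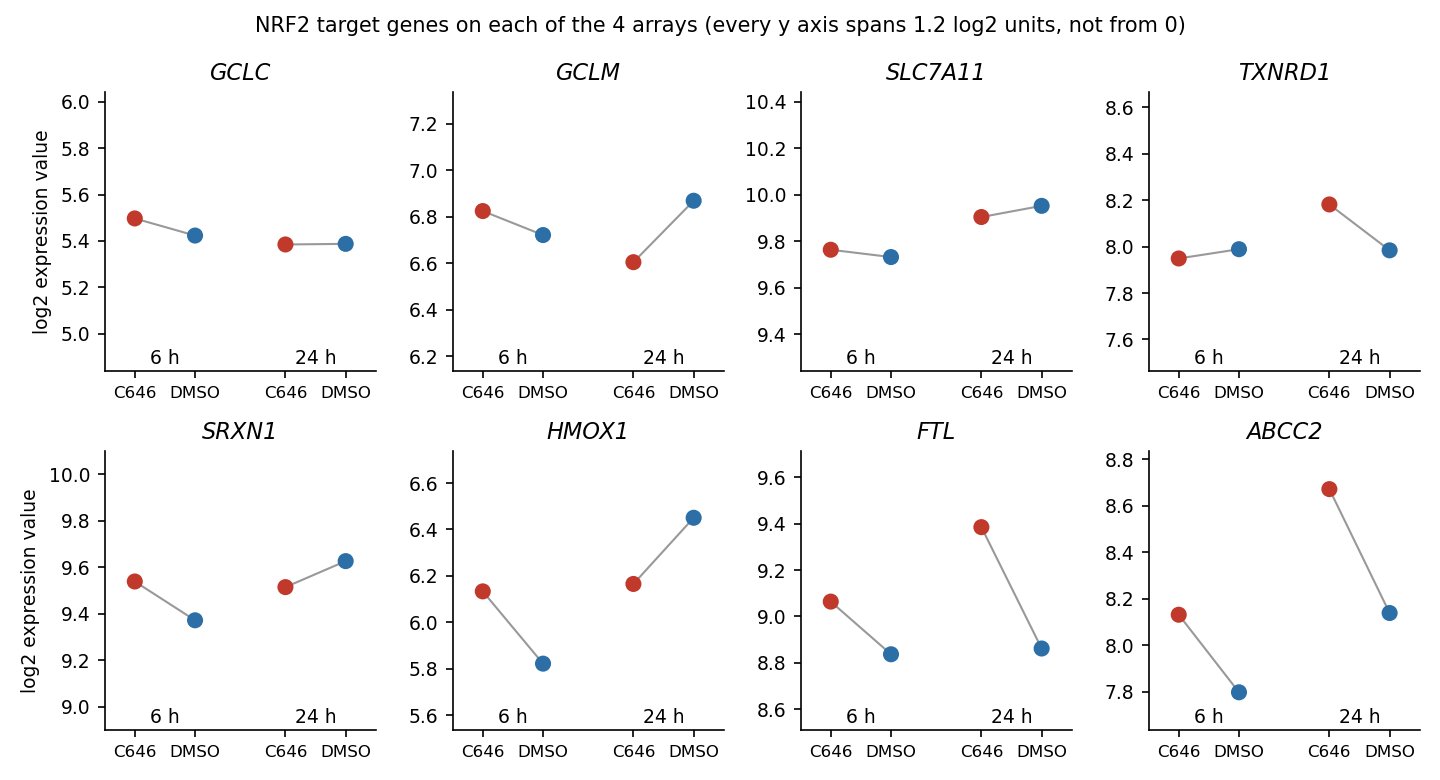
Log2 expression values (y axis, each spanning 1.2 units and not starting at 0) of the 8 measured NRF2 target genes on the 4 arrays, with C646 in red left of DMSO in blue at 6 h and at 24 h; each point is 1 array and a grey line joins the arrays of a time. FTL and ABCC2 are higher with C646 at both times, and HMOX1 has its lowest value with DMSO at 6 h and its highest with DMSO at 24 h.

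Iron storage and conjugate export had the largest differences of the 8 at 24 h. FTL, the light chain of the ferritin shell that stores iron, read 9.06 with C646 against 8.84 with DMSO at 6 h, and 9.38 with C646 against 8.86 with DMSO at 24 h. Both C646 arrays were above both DMSO arrays, and the DMSO arrays lay 0.025 apart. The difference was 0.23 at 6 h and 0.52 at 24 h, or 1.17-fold and 1.44-fold. At 24 h, 12.9% of all probe sets lay at least as far from 0. FTL has near-identical processed copies in the genome, and a second probe set that carries its symbol is numbered among those of chromosome 20 rather than chromosome 19. That probe set gave 0.16 at 6 h and 0.43 at 24 h, and signal from copies cannot be told apart from that of FTL.

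ABCC2 encodes MRP2, a membrane pump that exports glutathione conjugates. It read 8.13 with C646 against 7.80 with DMSO at 6 h, and 8.67 with C646 against 8.14 with DMSO at 24 h. The C646 array of 24 h was the highest and the DMSO array of 6 h the lowest, while the C646 array of 6 h and the DMSO array of 24 h were nearly level. The difference was 0.33 at 6 h and 0.53 at 24 h, or 1.26-fold and 1.45-fold. ABCC2 was also higher in DMSO at 24 h than in DMSO at 6 h, by 0.34, a difference as large as that between C646 and DMSO at 6 h. Set against the mean of both DMSO arrays, the 6 h difference was 0.16 and the 24 h difference 0.70.

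ABCC2 had the largest C646 difference of the 8, and its 4 values, with the gene's mean taken off, were set against those of the other 10706 named genes past the filter. The nearest by Euclidean distance over the 4 arrays were OR1F1 (0.037 log2 units), MUC5B (0.068), CARD6 (0.085), RASEF (0.090) and AJUBA (0.094). The RASEF probe set is numbered among those of another chromosome. FTL ranked 250th among these genes, at 0.28, and the next NRF2 target, TXNRD1, ranked 2007th.

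The gene of heme breakdown had the largest vehicle difference of the 8. HMOX1, the inducible heme oxygenase, read 6.13 with C646 against 5.82 with DMSO at 6 h, and 6.17 with C646 against 6.45 with DMSO at 24 h. The C646 arrays lay 0.032 apart and between the DMSO arrays, which differed by 0.63. Only 1.00% of all probe sets differed as much between the DMSO arrays. The difference between C646 and DMSO was 0.31 at 6 h and -0.28 at 24 h. The later effect minus the earlier one, -0.60, equals the 0.032 between the C646 arrays minus the 0.63 between the DMSO arrays. Against the mean of both DMSO arrays HMOX1 stood at -0.0029 at 6 h and 0.029 at 24 h.

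GCLC, GCLM and SLC7A11, by the probe sets that stood for them, differed from DMSO by at most 0.26 in size. GCLC, the catalytic subunit of glutamate-cysteine ligase, read 5.50 with C646 against 5.42 with DMSO at 6 h, and 5.39 with C646 against 5.39 with DMSO at 24 h, differences of 0.074 and -0.0026. Its symbol stood on 4 more probe sets, of which 3 were below the filter. The remaining one, just past the filter with a mean of 3.98, gave 0.50 at 6 h and 0.16 at 24 h. It passed only through the C646 array of 6 h, at 4.39. With DMSO at 6 h it read 3.89, with C646 at 24 h 3.90 and with DMSO at 24 h 3.74, all below the filter at 3.96. Whether the probe sets of GCLC disagree can therefore not be read from it. GCLM, the modifier subunit that raises the activity of the ligase, read 6.83 with C646 against 6.72 with DMSO at 6 h, and 6.61 with C646 against 6.87 with DMSO at 24 h. The C646 array of 24 h was its lowest, 0.26 below DMSO of the same time. SLC7A11, the cystine transporter that feeds this pathway, read 9.76 with C646 against 9.73 with DMSO at 6 h, and 9.90 with C646 against 9.95 with DMSO at 24 h. Its differences were 0.031 and -0.048, while the arrays of 24 h stood above those of 6 h with either treatment, by 0.14 in C646 and 0.22 in DMSO.

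The genes of the thioredoxin system, TXNRD1 and SRXN1, differed from DMSO in opposite directions at each time. TXNRD1, the cytosolic thioredoxin reductase, read 7.95 with C646 against 7.99 with DMSO at 6 h, and 8.18 with C646 against 7.98 with DMSO at 24 h. The other 3 arrays lay within 0.040 of each other, and the C646 array of 24 h stood 0.20 above its vehicle, or 1.15-fold. SRXN1, sulfiredoxin, which repairs overoxidised peroxiredoxins, read 9.54 with C646 against 9.37 with DMSO at 6 h, and 9.51 with C646 against 9.63 with DMSO at 24 h. As with HMOX1, both C646 values lay between the DMSO values, which differed by 0.25, and the differences were 0.17 and -0.11.

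**Figure D2:**
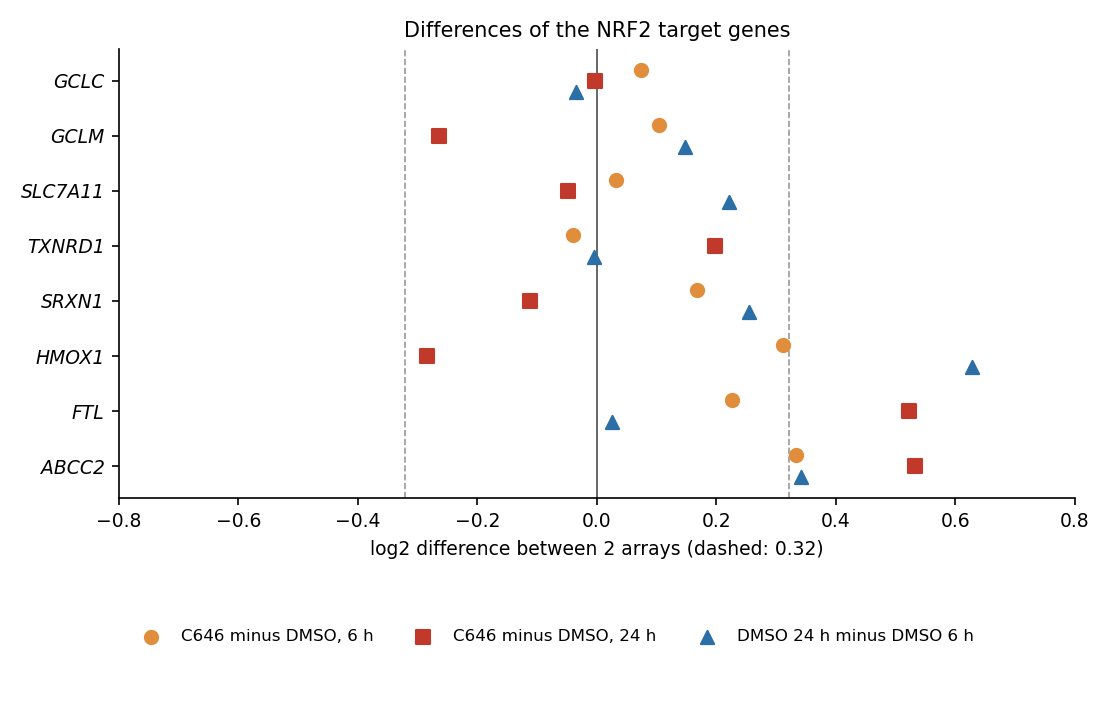
Log2 differences between 2 arrays (x axis) for each measured NRF2 target gene (rows): C646 minus DMSO at 6 h (orange circles), C646 minus DMSO at 24 h (red squares) and DMSO at 24 h minus DMSO at 6 h (blue triangles), with dashed lines at 0.32. At 24 h FTL (0.52) and ABCC2 (0.53) lie above 0.32, and between the DMSO arrays HMOX1 (0.63) and ABCC2 (0.34) do.

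A smaller difference of 0.32, which is 25% higher or lower by the same factor, was also counted. At 6 h ABCC2 alone of the 8 was higher by that much, where 5.19% of all probe sets were, and 0 were lower, where 5.68% were. Against the mean of both DMSO arrays 0 reached it at 6 h. At 24 h FTL and ABCC2 were higher by that amount, or 2 of 8, where 15.4% of all probe sets were, and 0 were lower, where 12.1% were. Between the DMSO arrays HMOX1 and ABCC2 were higher at 24 h, 2 of 8 against 2.4% of all probe sets. The median over 10 reference genes was -0.056 (6 h) and 0.064 (24 h). They ran from TUBA1B (-0.40 and -0.82), whose probe set is numbered among those of another chromosome, to GAPDH (0.35 and, just short of being counted, 0.32). TBP was at 0.10 and 0.22 and HPRT1 at -0.090 and -0.031.

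At 6 h, 7 of the 8 lay above DMSO, against 49.4% of all probe sets, and at 24 h 3 of the 8 did, against 55%. Against the mean of both DMSO arrays these counts were 5 and 6. Of the 8, 6 were higher in DMSO at 24 h than in DMSO at 6 h, with a median of 0.18, against 45.2% of all probe sets with a median of -0.014. Above DMSO at 6 h and below it at 24 h were 5 of the 8, where 14.9% of all probe sets did the same. The 6 h effect, the 24 h effect and the vehicle difference share the DMSO arrays, so a DMSO array that is high or low moves 2 of them at once.

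**Figure D3:**
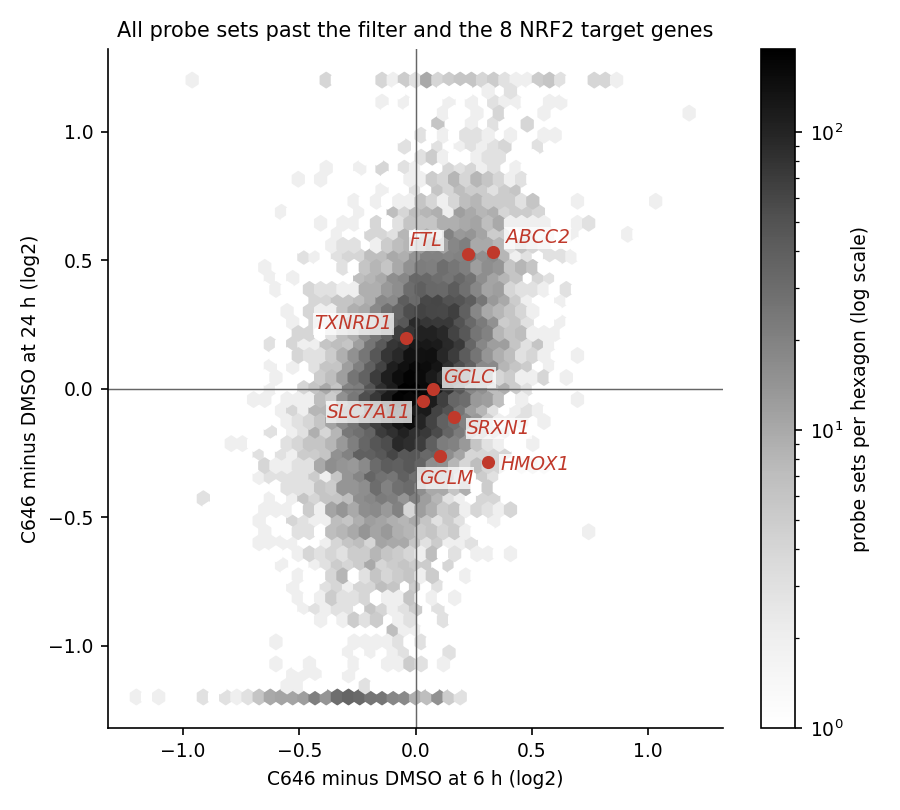
C646 minus DMSO at 6 h (x axis, log2) against C646 minus DMSO at 24 h (y axis, log2) for 16579 probe sets past the filter, as grey hexagons whose shade gives their number on a log scale, with values beyond 1.2 drawn at the edge; red points are the 8 NRF2 target genes. FTL and ABCC2 lie in the upper right and HMOX1, GCLM and SRXN1 in the lower right, all within the cloud of other probe sets.

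An effect shared by both times was estimated with limma on all 4 arrays, with time as a term and 1 residual degree of freedom, so that its error comes from the disagreement between the times, moderated by limma over all probe sets. ABCC2 was at 0.43 ± 0.12 (SE) and FTL at 0.37 ± 0.14, both with a limma adjusted p of 0.448, and neither passed. The unadjusted limma p was 0.0248 for ABCC2 and 0.0511 for FTL. The other 6 had estimates from -0.081 for GCLM to 0.079 for TXNRD1, with limma adjusted p from 0.815 to 0.982. Of 16579 probe sets limma called 0 (0%), with 1828 (11%) at an unadjusted p under 0.05. When an array was left out, the term for time was dropped as well. Without the C646 array of 6 h only that of 24 h is set against the vehicle arrays of both times, taken as replicates. The disagreement of the vehicle arrays is then the only residual, again moderated over all probe sets. Time and treatment are partly mixed in that fit, and its p-values do not measure the error between replicates of C646. That fit called 2252 probe sets (13.6%), among them FTL (0.53, limma adjusted p = 0.0388) but not ABCC2 (0.70, limma adjusted p = 0.0656). Without any of the other arrays it called 0, and the limma adjusted p of FTL ran from 0.384 to 1.

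Among the regulators of NRF2, 9 of 13 listed genes had a probe set of their own and 8 passed the filter. NFE2L2 was not among them. MAFF, a small MAF protein, read 6.66 with C646 against 6.27 with DMSO at 6 h, and 6.55 with C646 against 6.00 with DMSO at 24 h. Both C646 arrays were above both DMSO arrays, by 0.39 at 6 h and 0.55 at 24 h. Of the 8 regulators, MAFF alone was higher by at least 0.32, and was so at both times. Of all probe sets, 5.19% were at 6 h and 15.4% at 24 h. Lower by that much were 0 of the 8, where 5.68% and 12.1% of all probe sets were. BACH1, the repressor, read 6.72 with C646 against 6.97 with DMSO at 6 h, and 6.99 with C646 against 7.15 with DMSO at 24 h, differences of -0.25 and -0.16. MAFG, another small MAF protein, was at -0.034 and -0.19. KEAP1 was at 0.10 and -0.024, and CUL3 at -0.025 and 0.0011. NFE2L1, a factor related to NRF2, was at 0.036 and 0.11. PALB2 and DPP3, which bind KEAP1, were at -0.012 and -0.13 and at -0.087 and 0.048, and the DPP3 probe set is numbered among those of another chromosome. BACH2 lay below the filter. BACH1 and MAFG each have 3 probe sets of their own and NFE2L1 has 2, and only the one with the highest mean is given.

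Other genes of glutathione metabolism had 16 of 20 listed members past the filter, with medians of 0.11 at 6 h and 0.17 at 24 h. By at least 0.32, 3 of the 16 were higher and 3 lower at 24 h, where 15.4% and 12.1% of all probe sets were, shares near those of the list. The higher ones were GGT7 (0.60), glutaredoxin GLRX (0.52), which reduces glutathionylated proteins, and the glutathione peroxidase gene GPX1 (0.43), whose probe set is numbered among those of another chromosome. The lower ones were CHAC1 (-0.88), CHAC2 (-0.65) and GGCT (-0.47). GPX1, CHAC2 and GGCT were chosen after their values were seen. GLRX2 was at -0.30. CHAC1 read 5.51 with C646 against 6.39 with DMSO at 24 h, its lowest value on the 4 arrays.

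Glutathione transferases, which couple glutathione to electrophiles, had 10 of 17 listed members past the filter and medians of 0.11 and 0.21. At 24 h 4 of the 10 were higher by at least 0.32 and 0 lower, where 15.4% and 12.1% of all probe sets were. GSTK1 was at 0.66 and GSTA4 at 0.51, and GSTT1 (0.51) and GSTM3 (0.50) were chosen after their values were seen. GSTA4 read 5.33 with C646 against 4.64 with DMSO at 6 h, and 5.11 with C646 against 4.60 with DMSO at 24 h, so that both C646 arrays lay above both DMSO arrays. The microsomal transferase genes MGST1 and MGST3 were at 0.013 and -0.054 at 6 h and at -0.11 and -0.059 at 24 h. These families hold close copies, and 7 listed members were left out, 5 of which had no probe set of their own.

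Thioredoxin, peroxiredoxin and other peroxide-handling genes had 15 of 19 listed members past the filter, with medians of 0.012 and 0.13. At 24 h 6 of the 15 were higher by at least 0.32 and 0 lower, where 15.4% and 12.1% of all probe sets were. Besides SESN1 and PRDX6 these were SESN2 (0.55), TXN (0.41), TXNIP (0.38) and CAT (0.35), chosen after their values were seen. At 6 h SESN2 was at -0.10, TXN at -0.012, TXNIP at -0.35 and CAT at 0.16. SESN1, a stress gene that is also a p53 target, was at 0.59. It read 3.96 with C646 against 3.81 with DMSO at 6 h, and 4.64 with C646 against 4.06 with DMSO at 24 h. Apart from the C646 array of 24 h, which helped it pass, these values lie near or below the filter at 3.96. The peroxiredoxin gene PRDX6 was at 0.31 at 6 h and 0.40 at 24 h. PRDX3 and the superoxide dismutase gene SOD1 were at -0.087 and -0.048 at 24 h. Of 7 p53 target genes measured beside them, 7 were higher by at least 0.32 at 24 h, against 15.4% of all probe sets, from 0.85 for CDKN1A to 1.48 for MDM2 with a median of 1.23, and their part in the values of such genes was not tested.

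Genes that supply NADPH had 9 of 12 listed members past the filter and medians of 0.15 at 6 h and -0.073 at 24 h. IDH1 and the malic enzyme gene ME1 were at 0.35 and 0.24 at 6 h and at 0.27 and 0.27 at 24 h. The mitochondrial enzymes MTHFD2 and IDH2 were the lowest at 24 h, at -0.94 and -0.62. MTHFD2 serves one-carbon metabolism as well, and it read 7.11 with C646 against 8.04 with DMSO.

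Quinone and aldehyde detoxification genes had 10 of 24 listed members past the filter, with medians of 0.10 and 0.16. The carbonyl reductase gene CBR1 was at 0.36 and 0.24, ABHD4 at 0.23 and 0.20, PIR at 0.12 and -0.061, and UGDH at 0.029 and -0.11. Of the other efflux pumps, 7 of 9 passed the filter and the medians were 0.14 and -0.13. ABCC3 and ABCC10 were at 0.43 and 0.41 at 24 h, whereas ABCC4 and ABCB1 were at -0.19 and -0.24. ABCC3 read 4.14 with C646 against 3.90 with DMSO at 6 h, and 4.30 with C646 against 3.87 with DMSO at 24 h. Its DMSO values lay below the filter at 3.96, so it passed only through the C646 arrays, and its difference carries little weight. ABCG2, chosen after its values were seen, was at -0.45.

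Iron and heme genes had 19 of 22 listed members past the filter, with medians of 0.057 and -0.040. The iron importer gene SLC11A2 was at 0.26 at 6 h and 0.27 at 24 h, and ALAS1, the first enzyme of heme synthesis, at 0.057 and 0.32. The heme exporter gene FLVCR1 was at -0.067 and -0.64, and ACSL4, a lipid enzyme of ferroptosis, at -0.24 and -0.077. Genes of the ATF4 stress response, which shares SLC7A11 as a target, had medians of 0.11 and -0.19 over 11 members. DDIT3, which encodes CHOP, was at 0.42 and 1.17 and DDIT4 at 0.25 and 0.23, while ASNS and PSAT1, enzymes of amino acid synthesis, were at -0.40 and -0.56 at 24 h. DDIT3 was the only 1 of the 11 to differ 2-fold at 24 h, where 3.64% of all probe sets did. It was at -0.42 between the DMSO arrays (24 h minus 6 h) and at 0.34 between the C646 arrays, so a lower vehicle value enters its 24 h difference.

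**Figure D4:**
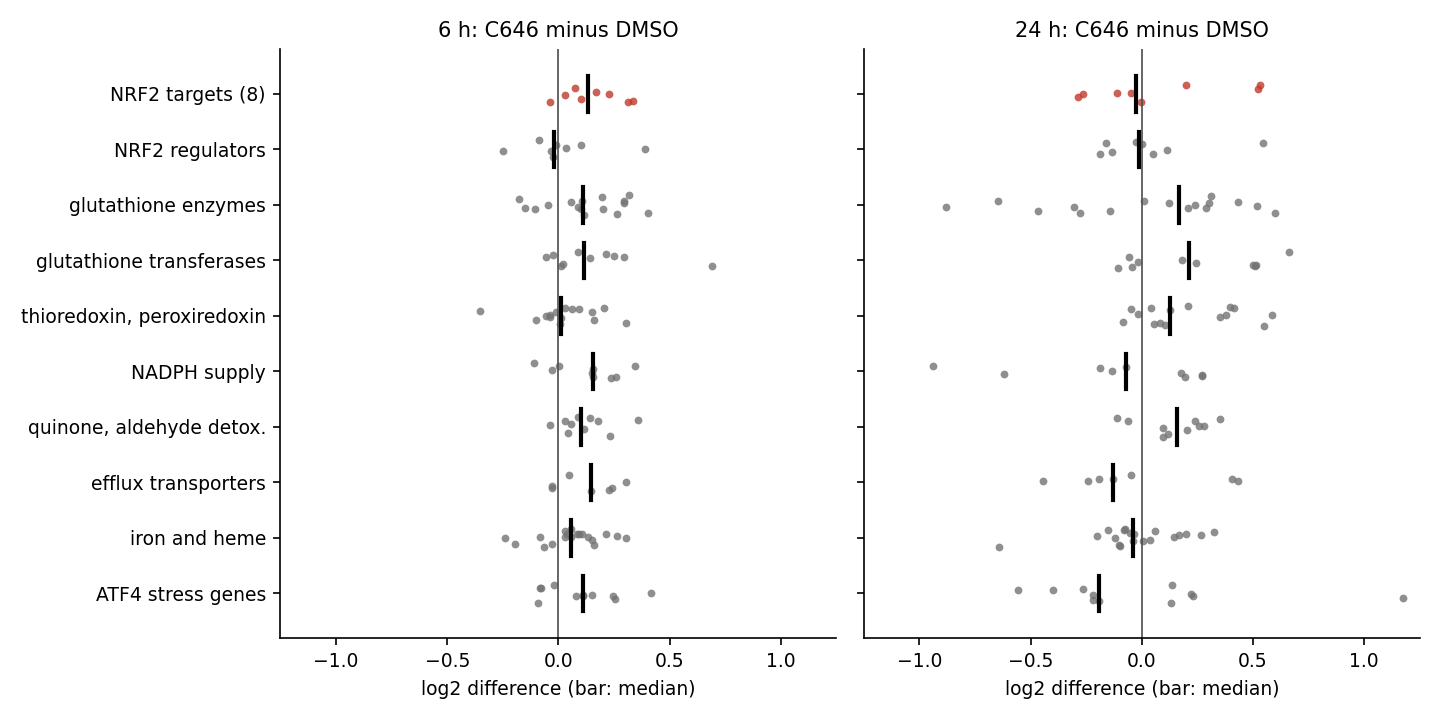
Log2 difference between C646 and DMSO (x axis) at 6 h (left) and 24 h (right) for the genes past the filter of each list (rows), each point a gene and each black bar the median of its list. At 6 h the medians lie between -0.018 and 0.15, and at 24 h the points spread more widely, from MTHFD2 at -0.94 to DDIT3 at 1.17.

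Over the 7 lists of glutathione, thioredoxin, NADPH, detoxification, efflux and iron genes together, 86 of 123 listed genes passed the filter. Of these, 64 lay above DMSO at 6 h, or 74.4%, against 49.4% of all probe sets, and 50 did at 24 h, or 58.1%, against 55%. By at least 0.32, 17 of the 86 were higher and 7 lower at 24 h, where 15.4% and 12.1% of all probe sets were, and 0 differed 2-fold at either time, where 0.241% of all probe sets did at 6 h and 3.64% at 24 h. The cell cycle markers that were at least 2-fold lower at 24 h were measured on the same array, and their part in these differences was not tested.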

How the data were processed

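RNA of 4 WM35 cultures was measured on Affymetrix Human Exon 1.0 ST arrays. The authors' deposited table holds log2 values for 27631 gene-level probe sets. No label names the scale, and log2 was inferred from their range of 2.48 to 13.6, with array medians of 4.39 to 4.41. Summarisation and normalisation are not given in the sources used here; hg19 is the build in the submitters' processing notes, and it was not used for coordinates. The platform annotation gave 1 symbol to 20429 probe sets, several to 4232 and none to 2970. Symbols were updated by Entrez identifier with RefSeq (20362 matched). Probe sets at or above the 40th percentile of the mean over the 4 arrays, 16579, were kept. A probe set was placed by the chromosome of most of its 25 neighbours in number on either side.

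Differences were computed in Python 3.11.15 with pandas 2.3.3. The model over both times used limma 3.58.1 in R 4.3.3 (lmFit, eBayes with trend, Benjamini-Hochberg over all probe sets kept, 0.05). Both steps were also run on simulated data with even noise and planted differences of 2-fold or more. That checks the code, not the power for differences as small as those of the NRF2 targets. Calls at each time are fold sizes, not tests. The number of arrays limits the precision. Named were all measured members, all regulators, and from every other list the 2 highest and 2 lowest genes by mean effect and those that differed 2-fold. Of the cell cycle and p53 markers only the lowest and highest at 24 h are printed, and KRT14, PTPRC and PECAM1 were named outside the rule, as were the genes marked so in the text. The members, lists and rules were chosen with earlier results of these data known.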

Additional observations from a re-analysis of the deposited data

Results flagged for a closer look

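In 6 of the 8 measured NRF2 targets the C646 effect had opposite signs at 6 h and 24 h, each resting on 1 array per group, and the difference between the times was not tested. Of all probe sets, 14.9% lay above DMSO at 6 h and below it at 24 h, and 20.6% did the reverse. The 24 h effect minus the 6 h effect was -0.60 for HMOX1, -0.37 for GCLM, -0.28 for SRXN1 and 0.24 for TXNRD1. It was -0.076 for GCLC and -0.080 for SLC7A11, whose effects at both times were under 0.1 in size. Over all probe sets this quantity had a median of 0.033 and an SD of 0.41. For HMOX1, SRXN1 and SLC7A11 the sign at 24 h turned when the mean of both DMSO arrays served as vehicle, with values of 0.029, 0.015 and 0.062, and so did the sign at 6 h for HMOX1 (-0.0029) and SLC7A11 (-0.079). For GCLC it turned at 24 h with the mean of all its probe sets (0.015).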

How the results depend on the processing

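Of 256 differences of single NRF2 targets under the alternatives, 254 moved by less than 0.173, the SD of the DMSO difference over probe sets. The exceptions were HMOX1 at 6 h (-0.0029) and 24 h (0.029) against the mean of both DMSO arrays. Many of the 256 could not move. All 8 targets kept their probe set without the filter, at percentile 60, and with only probe sets numbered among their own chromosome. Averaging over probe sets could change only GCLC and FTL, and median centring shifts all genes of a comparison alike. The count of 254 is therefore no measure of robustness. The median of the 8 ran from 0.035 to 0.17 at 6 h and from -0.039 to 0.046 at 24 h, so its sign at 24 h depended on the vehicle chosen. FTL and ABCC2 were above DMSO at both times under every alternative, from 0.20 to 0.30 and 0.16 to 0.37 at 6 h, and from 0.48 to 0.53 and 0.50 to 0.70 at 24 h. A stricter filter, at percentile 60, left 12 probe sets in place of 21 that were 2-fold higher at 6 h, out of fewer tested. In limma, leaving out 1 array at a time gave 0 to 2252 calls. The estimates then ran from -0.30 to 0.33 for HMOX1, -0.19 to 0.029 for GCLM, -0.020 to 0.092 for GCLC, -0.10 to 0.15 for SRXN1, -0.037 to 0.19 for TXNRD1, -0.12 to 0.10 for SLC7A11, 0.21 to 0.53 for FTL and 0.16 to 0.70 for ABCC2. With quantile normalization SLC7A11 was at 0.017 in limma. The cause of these changes was not tested. No paired analysis by replicate number was possible because each group has 1 array and the labels give no such numbers. In the fits on all arrays the limma term for time sets C646 against DMSO of the same time. The fits that left out an array had no such term.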
